A study of Drosophila melanogaster with 3 samples.

Results

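The segmentation genes of Drosophila form the cascade that divides the embryo into segments along its head-to-tail axis. The 35 genes described here were taken from a list of symbols with 4 maternal, 11 gap, 10 pair-rule and 10 segment polarity genes, and all 35 were found in the gene models, among 13945 protein-coding genes. The gene h is annotated there under the symbol hry. A peak was counted for a gene when its summit lay in the gene or within 10 kb of either end. By that rule 100 of the 7769 peaks of the reproducible list fell at the 35 genes.

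Maternal products such as Bicoid set up gradients in the egg, and these switch on gap genes in broad domains. Gap proteins position the stripes of pair-rule genes, and pair-rule proteins in turn set the narrow stripes of segment polarity genes, which hold segment borders through Hedgehog and Wingless signalling. Several of these genes are textbook examples of control by separate enhancers that lie upstream, downstream or in introns, far from the start of transcription.

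The binding of D19A, a C2H2 zinc finger protein, was measured by chromatin immunoprecipitation and sequencing (ChIP-seq) in whole Drosophila melanogaster embryos aged 0 to 20 h, male and female pooled. All embryos came from a transgenic line that expresses D19A fused to eGFP, with the tag at the C-terminal end. The labels describe an anti-GFP precipitation but enter D19A as the antibody, and they give fragments of 200 to 800 bp. There was 1 group with 3 samples, labelled biological replicates 1, 2 and 3, with a biosample record each, and no untagged or untreated group was analysed here. The sources used here give neither the promoter that drives the fusion nor the number of insertions. Segmentation gene stripes first form early in this age range. The embryos were not sorted by stage or cell, so a peak can come from any cell and hour of the collection.

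The data were 5 peak lists. Each replicate list and the list from the pooled replicates held 30000 peaks, and the 7769 peaks that passed the authors' irreproducible discovery rate (IDR) procedure were all in the pooled list. Peaks were ranked by the authors' signal value, with rank 1 the strongest, and ranks hold within a list only. For the spread between replicates, the 7769 strongest peaks of each replicate list were used. Read depth is unknown, and the intervals given cover the counting of peaks only.

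Since the finding turned on where the summits lay, the reference sequence is shown for 6 strong distal summits of the segmentation genes (over 1 kb from every transcription start site, TSS) and for 3 promoter summits (within 250 bp of a TSS), 2 of them at promoters of other genes and 1 at the promoter of the gene itself. They are the best-ranked of their kind after summits of 1 chromosome arm, and those whose window touches an annotated exon, were set aside, so stronger ones exist that are not shown. Each is the 101 bp centred on the summit, 5′ to 3′ on the plus strand of dm6, from RefSeq's assembly of that build. Capitals mark the longest run made of A and T only, or the first of several equally long runs. The distal summit at opa was chr3R:4846926-4847026, that at knrl chr3L:20612961-20613061, that at ftz-f1 chr3L:18786850-18786950, that between slp1 and slp2 chr2L:3831834-3831934, that at cnc chr3R:23210395-23210495 and that at hh chr3R:23147744-23147844. The promoter summits were chr2L:267627-267727 near smo, chr2L:20787384-20787484 near cad and chr3R:6759628-6759728 at the promoter of bcd itself.
opa, distal: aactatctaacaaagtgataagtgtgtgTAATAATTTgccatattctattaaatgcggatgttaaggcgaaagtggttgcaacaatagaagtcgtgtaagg
knrl, distal: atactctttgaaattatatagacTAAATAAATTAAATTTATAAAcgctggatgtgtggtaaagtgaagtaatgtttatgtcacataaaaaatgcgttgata
ftz-f1, distal: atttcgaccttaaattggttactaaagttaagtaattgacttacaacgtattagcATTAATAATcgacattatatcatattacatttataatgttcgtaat
slp1 and slp2, distal: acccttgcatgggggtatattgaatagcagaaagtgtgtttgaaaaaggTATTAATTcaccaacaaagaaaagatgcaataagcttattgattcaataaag
cnc, distal: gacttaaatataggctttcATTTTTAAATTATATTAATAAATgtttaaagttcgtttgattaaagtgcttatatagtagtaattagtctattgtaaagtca
hh, distal: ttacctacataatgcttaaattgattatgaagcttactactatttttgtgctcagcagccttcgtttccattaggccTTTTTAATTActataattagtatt
smo, promoter of CG17075: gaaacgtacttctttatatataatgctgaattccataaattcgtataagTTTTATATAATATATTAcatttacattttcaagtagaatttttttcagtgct
cad, promoter of Pomp: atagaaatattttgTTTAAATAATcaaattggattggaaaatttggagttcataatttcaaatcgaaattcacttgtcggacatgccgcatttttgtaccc
bcd, own promoter: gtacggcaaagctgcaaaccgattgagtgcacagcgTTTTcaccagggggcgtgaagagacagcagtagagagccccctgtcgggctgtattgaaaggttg

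These windows differed in their make-up. The cnc window was 79.2% A or T, with an unbroken run of 23 bp, and the knrl window 75.2%, with a run of 21 bp. The window at the promoter of CG17075 near smo was 78.2% A or T, with a run of 17 bp. The window at the bcd promoter was 44.6% A or T, and its longest run was 4 bp. Of the 6 own-promoter summits off the chromosome arm set aside, only that at bcd had a window without an exon. That window thus was not chosen among several.

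Most segmentation genes had D19A summits nearby, and the share with one at their own promoter was near that of all protein-coding genes. Of the 35 genes, 30 (85.7%) had at least 1 IDR summit in the gene or within 10 kb, against 67.2% of all protein-coding genes. Among the strongest peaks of replicates 1, 2 and 3 the number was 30, 28 and 28 genes. The number depended on the window and the list. It was 23 with 5 kb on either side, 33 with 20 kb, and 21 within 10 kb for the strongest 3884 IDR peaks. The shares of all protein-coding genes under these settings are not given. Long genes have wider windows, and the segmentation genes were longer, with a median of 4.42 kb against 2.17 kb over all protein-coding genes. At their own promoter, within 250 bp of one of their TSSs, 7 of the 35 (20%) had an IDR summit, against 15.3% of all protein-coding genes, and in the replicates the number was 7, 6 and 9. Of the strongest 1942 IDR peaks, at least 1 lay in the gene or within 10 kb at 17 of the 35, against 34.8% of all protein-coding genes. Summit by summit the segmentation genes did not rank higher. Of their 100 summits 23% were among the strongest 1942, against 25.0% of the other IDR summits. Their median rank was 4496.5, against 3878 for the others. No list was tested against the other genes, and these shares are descriptions.

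Per length of sequence, the windows of the segmentation genes held more summits than the rest of the genome. They covered 1015.8 kb and held 9.84 IDR summits per 100 kb (exact 95% Poisson interval 8.01 to 12.0), against 5.77 per 100 kb in the rest of the 5 long arms and chromosome 4 (5.64 to 5.90), a ratio of 1.71. In replicates 1, 2 and 3 the density at the segmentation genes was 10.2, 8.37 and 9.25 per 100 kb, against 5.77, 5.78 and 5.78 in the rest. All 3 replicates lay above the rest, and the mean was 9.29 ± 0.936 at the segmentation genes and 5.78 ± 0.00715 in the rest (SD, n = 3 each). Since every replicate contributed the same number of peaks, the small SD of the rest is largely set by that number.

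The difference was not alike for all kinds of site. Each kind was counted per 100 kb of whole sequence, not of sequence of that kind. Distal summits stood at 6.89 per 100 kb at the segmentation genes (5.37 to 8.71) and 3.00 per 100 kb in the rest, a ratio of 2.30. Promoter summits, at any gene's TSS in the windows, stood at 1.77 (1.05 to 2.80) and 1.51 per 100 kb, a ratio of 1.18. Summits between 250 bp and 1 kb from a TSS stood at 1.18 (0.610 to 2.06) and 1.27 per 100 kb, a ratio of 0.934. The interval at the segmentation genes held the value of the rest for the last 2 kinds and not for distal summits. These intervals treat summits as independent, yet 27 of the 100 summits lay at ftz-f1, ptc and ci. The reading is therefore a description and no test.

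**Figure D1:**
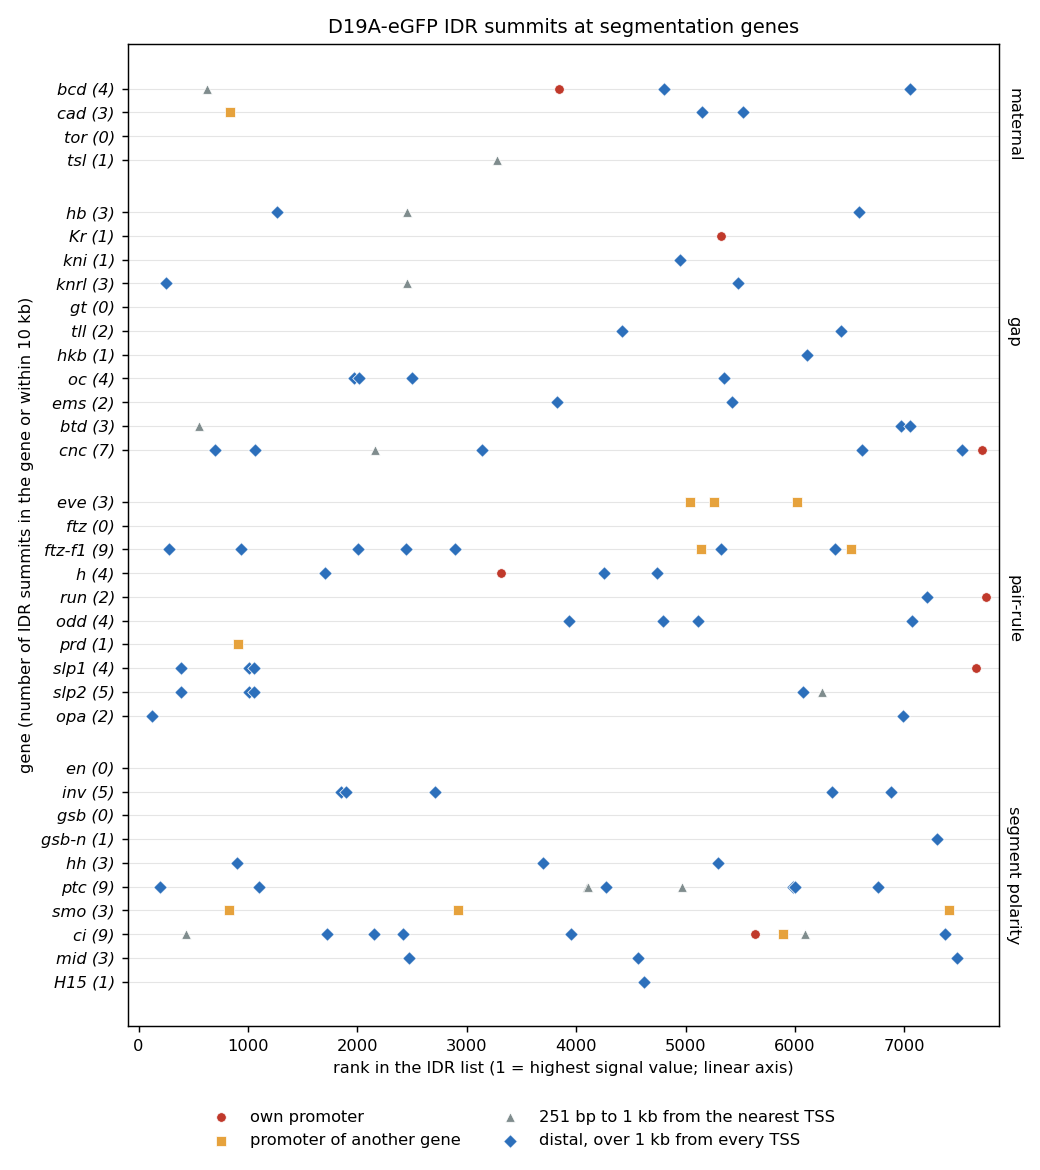
Each row is a segmentation gene, with its number of IDR summits in brackets, and each point is 1 summit in the gene or within 10 kb, placed by its rank in the IDR list (linear axis, strongest at the left). Colours and shapes give the kind of site: the 7 summits at a gene's own promoter lie at ranks 3311 to 7750, while the best ranks, such as 126 at opa, 196 at ptc and 250 at knrl, are distal.

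The numbers per gene ranged from 0 to 9. Of the 35 genes, 5 had no IDR summit, 11 had 1 or 2, and 19 had 3 or more. This split is not given for all protein-coding genes, whose windows are mostly shorter, so it is not shown to be particular to these genes. The most, 9 summits each, were at ftz-f1, ptc and ci. The window of ci, on chromosome 4, held 30.7 summits per 100 kb (14.0 to 58.3), that of ptc 25.3 (11.6 to 48.0) and that of ftz-f1 12.7 (5.82 to 24.2). The 9 summits of ftz-f1 were spread over a window of 70.7 kb, whereas those of ci lay in 29.3 kb. Windows overlapped in 3 pairs of neighbouring paralogues, slp1 with slp2, en with inv and gsb with gsb-n, and 3 summits between slp1 and slp2 counted for both genes.

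By class, density within 10 kb was lower at the maternal and gap genes than at the pair-rule and segment polarity genes, with intervals that overlapped. The 4 maternal genes had 8 summits, or 7.66 per 100 kb (3.31 to 15.1), and the 11 gap genes 27, or 8.14 per 100 kb (5.37 to 11.9). The 10 pair-rule genes had 31, or 11.1 per 100 kb (7.52 to 15.7), and the 10 segment polarity genes 34, or 11.4 per 100 kb (7.86 to 15.9). Over the 3 replicates the class densities were 7.02 ± 0.553 for maternal, 7.84 ± 1.60 for gap, 10.2 ± 0.545 for pair-rule and 10.8 ± 1.35 for segment polarity genes (SD, n = 3 each). The maternal value was 6.70, 7.66 and 6.70 per 100 kb in replicates 1, 2 and 3, the gap value 9.65, 6.64 and 7.24, the pair-rule value 10.3, 9.63 and 10.7, and the segment polarity value 12.0, 9.35 and 11.0. In replicate 1 the gap value of 9.65 came near the pair-rule value of 10.3. Without ci the segment polarity value was 9.25 per 100 kb, and without ftz-f1 the pair-rule value was 10.5. The order of the maternal and pair-rule classes turned round with other windows: they had 10.9 and 9.46 summits per 100 kb within 5 kb of the genes, and 10.3 and 9.99 within 20 kb. The pooled list gave another order, with 44.3 summits per 100 kb at gap genes (37.5 to 52.1), 44.1 at segment polarity genes (36.9 to 52.3), 38.2 at pair-rule genes (31.3 to 46.1) and 22.0 at maternal genes (13.9 to 33.0), against 22.3 in the rest.

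**Figure D2:**
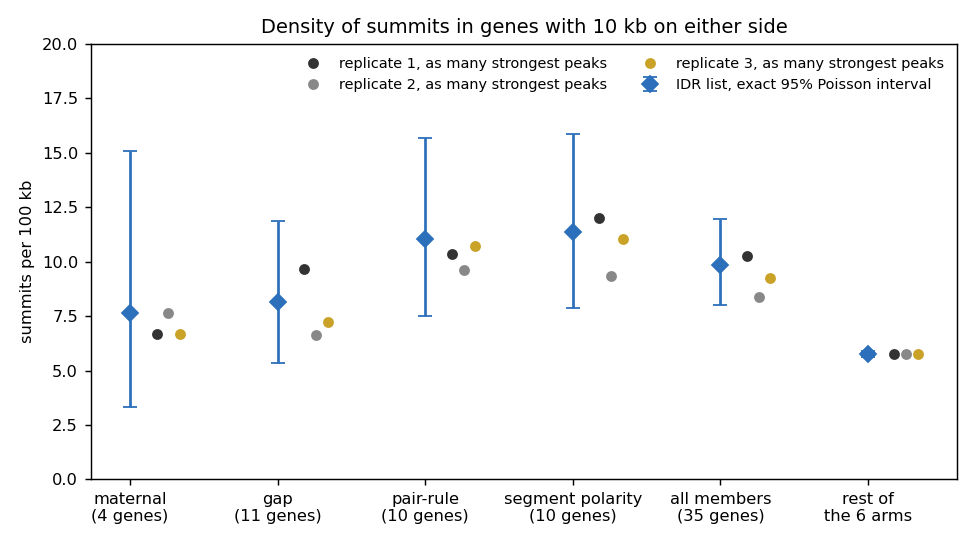
Summits per 100 kb (vertical axis, from 0) in the windows of the 4 classes, of all 35 segmentation genes and in the rest of the arms, with diamonds and 95% Poisson intervals for the IDR list and dots for the strongest peaks of each replicate. The classes run from 7.66 for maternal to 11.4 for segment polarity genes with overlapping intervals, and the rest lies at 5.77.

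Among the maternal genes, bcd, which encodes the anterior homeodomain morphogen, had 4 IDR summits. The strongest, chr3R:6762773-6763298 at rank 628, lay 3608 bp upstream of bcd in an intron of Ama, 330 bp from the TSS of Ama, and ranked 681, 585 and 809 in replicates 1, 2 and 3. The summit at the bcd promoter itself, chr3R:6759456-6759899, lay 212 bp upstream of the TSS at rank 3844 and ranked 3747, 3554 and 7409. The 2 further summits, at ranks 4806 and 7055, were distal. All 3 replicates placed the Ama intron peak well above the promoter peak.

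The posterior homeodomain gene cad had 3 summits. Its strongest, chr2L:20787212-20787588 at rank 840, lay 4299 bp past the end of cad and 222 bp from the TSS of Pomp, with replicate ranks of 885, 777 and 1003. The other 2 were distal, at ranks 5152 and 5529, 1 of them inside cad. The gene tsl, required for activation of the Torso receptor at the embryo's poles, had 1 summit, chr3R:21781623-21781734 at rank 3275, in an intron 912 bp from its TSS, with replicate ranks of 4135, 3022 and 4855. The receptor gene tor itself had none in the IDR list. The pooled list held 3 weaker summits near tor, the best at rank 12834, all over 10 kb from its TSS.

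The gap genes were led by knrl, which encodes an orphan nuclear receptor family protein related to Knirps. Its peak chr3L:20612791-20613278, at rank 250, lay in an intron 7648 bp from the TSS, with ranks of 214, 331 and 199 in replicates 1, 2 and 3. The 2 others lay upstream at rank 2451 and in an intron at rank 5477. Its paralogue kni had 1 summit, at rank 4953, 5414 bp upstream, with replicate ranks of 4658, 4353 and 10320. The best peak of knrl was above that of kni in every replicate.

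The head gap gene btd, an Sp family zinc finger gene, had 3 summits, of which the strongest, chrX:9687506-9687913 at rank 550, lay 6441 bp upstream and 444 bp from the TSS of the noncoding RNA gene lncRNA:CR42657. It ranked 564, 437 and 960 in the replicates. The bZIP gene cnc, needed in head segments, is the longest gap gene in the list at 41.1 kb and had 7 summits. The strongest, chr3R:23210216-23210652 at rank 698, lay in an intron 4112 bp from the closest start of cnc, with replicate ranks of 677, 834 and 619. The next lay past the end of cnc in an intron of Irk1 and CG46310 at rank 1061, and a summit at a cnc promoter, chr3R:23226459-23226902, 30 bp from a TSS, stood at rank 7708, near the end of the list, with replicate ranks of 6508, 7662 and 8197.

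Of the canonical trunk gap genes, the zinc finger gene hb had 3 summits, all downstream, the best at rank 1263 and 3535 bp past its end. The zinc finger gene Kr had a single summit, chr2R:25226417-25226860 at rank 5323, 28 bp from its TSS, where the replicates ranked 6598, 5709 and 4065. The bZIP gene gt had none in the IDR list, and its only pooled summit, at rank 10792, lay 9211 bp from its TSS. The terminal gap gene tll, an orphan nuclear receptor gene, had 2 summits in overlapping peaks, 9061 and 8861 bp upstream, the better at rank 4423, and hkb, a zinc finger gene of the termini, had 1 at rank 6109. The head gap homeodomain genes oc and ems had 4 and 2, all distal, with best ranks of 1968 and 3825.

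Among the pair-rule genes, opa, which encodes a Zic family zinc finger protein, carried the strongest peak of all 35 genes. That peak, chr3R:4846645-4847265 at rank 126, had a signal value of 5177 and its summit lay 5837 bp upstream in intergenic sequence. It ranked 118, 165 and 107 in replicates 1, 2 and 3. The second opa summit lay 6864 bp past the gene in a coding exon of laf, at rank 6989. Those were the only IDR summits at opa, while the pooled list held 13 in its window.

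The gene ftz-f1, a nuclear receptor that acts as cofactor of Ftz, had 9 summits, 7 of them in its own introns. The leading peak, chr3L:18786624-18787246 at rank 277, lay 14409 bp from any TSS of the gene, with replicate ranks of 361, 295 and 209. A further intronic summit stood at rank 937, with replicate ranks of 922, 1365 and 566, and 7 of the 9 summits were supported by strong peaks of every replicate. None lay at a TSS of ftz-f1, while 2 overlapping peaks lay past its end at the promoters of Nufip and Atg3. By contrast ftz, the homeodomain gene whose product it partners, had no summit in the IDR, pooled or replicate lists.

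The forkhead genes slp1 and slp2 lie side by side, and 3 summits in the sequence between them were all among the strongest 1942 of the list. The strongest, chr2L:3831679-3832230 at rank 384, lay 4785 bp past slp1 and 4956 bp upstream of slp2, and ranked 291, 586 and 285 in the replicates. The summit at rank 1007 ranked 1405, 536 and 4119, and the summit at rank 1053 ranked 1007, 975 and 1580. The promoter of slp1 had a summit 15 bp from its TSS, chr2L:3825468-3825911, only at rank 7657, with replicate ranks of 7832, 9035 and 7694. At this locus the intergenic peaks were far stronger than the promoter peak in every replicate.

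The bHLH repressor gene h had 4 summits and the best-ranked own-promoter summit of the list. That peak, chr3L:8675623-8676066 at rank 3311, lay 86 bp from a TSS and ranked 3585, 3746 and 3244, so the replicates gave it close ranks. A stronger peak stood 6510 bp upstream at rank 1701, with replicate ranks of 1410, 2186 and 1531. The Runt domain gene run had a promoter summit at rank 7750, chrX:20694001-20694444, 216 bp from a TSS, with replicate ranks of 8009, 9278 and 7033, and 1 upstream summit at rank 7205.

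The zinc finger gene odd had 4 distal summits, the best at rank 3935. The homeodomain gene prd had 1, at rank 910, which lay 7010 bp past the gene and 115 bp from the TSS of CG14947. The homeodomain gene eve had 3 summits, at ranks 5044, 5257 and 6020, and the nearest lay 6335 bp from the gene. All 3 were at promoters of other genes, those of lncRNA:CR46455, CG12134 and TER94.

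**Figure D3:**
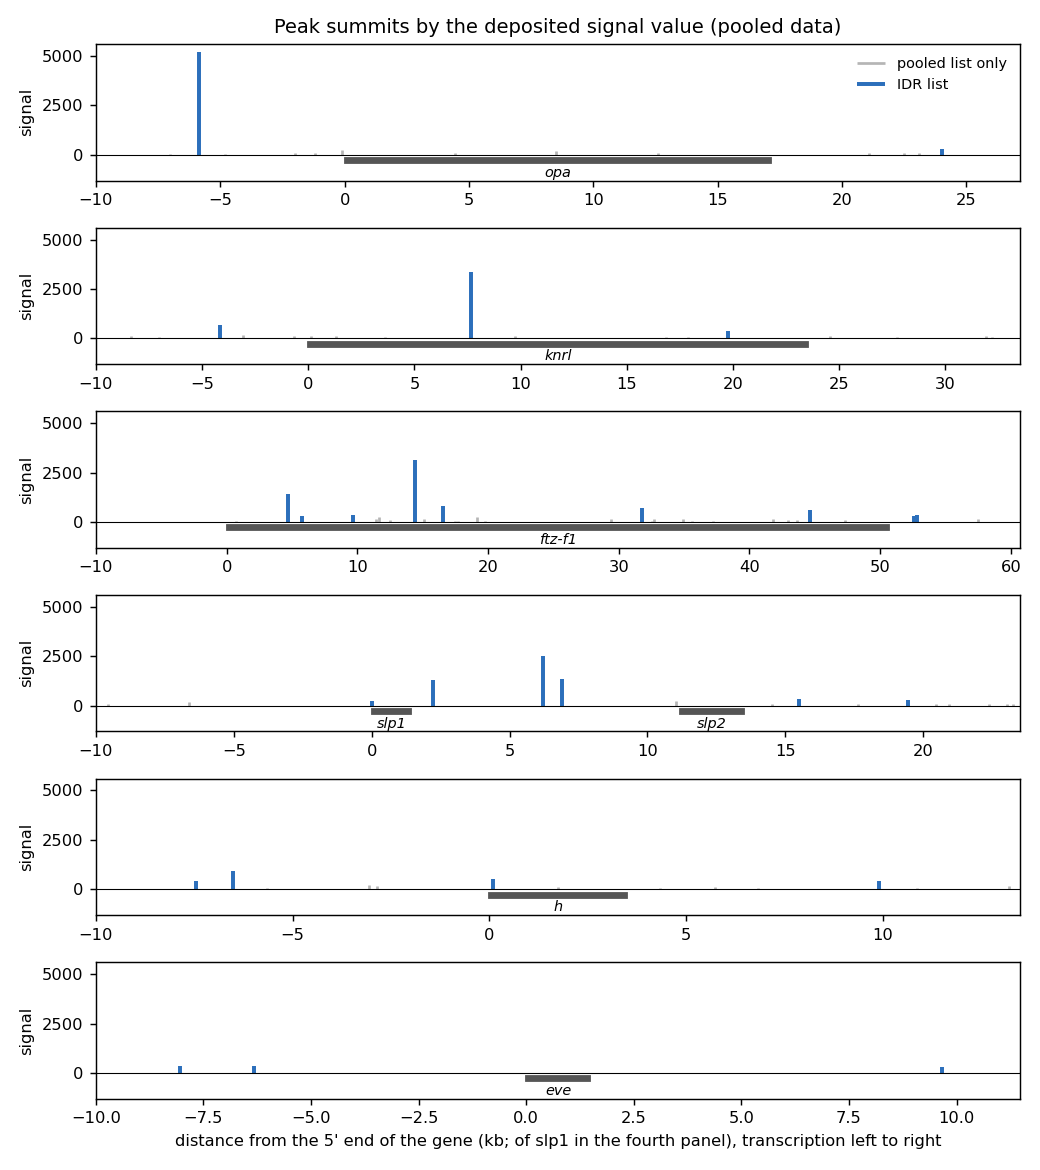
Signal value of each summit (vertical axis, the authors' value in pooled data) against its distance in kb from the gene's 5′ end (from that of slp1 in the fourth panel), with transcription from left to right; IDR summits are blue, pooled-only summits grey and genes dark bars. The highest summits stand upstream of opa, in introns of knrl and ftz-f1 and between slp1 and slp2, while those at the TSS of h and slp1 and near the borders of the eve window are low.

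Among the segment polarity genes, 24 of the 34 summits lay at hh, ptc, smo and ci, which encode the ligand, receptor, transducer and transcription factor of Hedgehog signalling. Most of the 24 were at ptc and ci, with 9 each. Their windows measured 33.7 kb (hh), 35.6 kb (ptc), 24.6 kb (smo) and 29.3 kb (ci), of 299.5 kb for the class. The receptor gene ptc had 9 summits, the strongest, chr2R:8669030-8669586 at rank 196, in an intron of Acsl 4075 bp past the end of ptc. It ranked 237, 195 and 214 in the replicates. The next, at rank 1105, lay 5274 bp upstream and ranked 1019, 1134 and 1161. Another, at rank 4103, was 270 bp from the ptc TSS, just outside the promoter limit of 250 bp. The 2 leading ptc peaks were close to the same rank in all 3 replicates.

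The transcription factor gene ci, a Gli family zinc finger gene, also had 9 summits. The strongest, chr4:41564-42109 at rank 438, lay in an intron of the neighbouring gene PlexB, 5892 bp past the end of ci, and ranked 372, 699 and 339. The same interval is listed again with a second summit at rank 6096. The own-promoter summit of ci, chr4:56296-56739 at rank 5638, lay 187 bp from a ci TSS and 21 bp from that of the antisense RNA gene asRNA:CR43957, so the antisense start was the nearer. Its replicate ranks were 6325, 6279 and 5687.

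The gene smo, for the transmembrane protein that Patched inhibits, had 3 summits, all at promoters of other genes. The strongest, chr2L:267498-267854 at rank 827, was 9905 bp upstream of smo and 172 bp from the TSS of CG17075, and ranked 1060, 612 and 1250. The ligand gene hh had 3 summits, all upstream and intergenic, at ranks 901, 3700 and 5299, and all were supported by strong peaks of every replicate. The best hh peak ranked 697, 1329 and 623.

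The remaining segment polarity genes encode transcription factors. The homeodomain gene inv had 5 intronic summits, the best at rank 1855, and 1 of the 5, at rank 6339, overlapped no peak of any replicate list. Its paralogue en had none in the IDR list and 5 weaker pooled summits, the best at rank 11249. The T-box genes mid and H15 had 3 and 1, all distal and downstream, with best ranks of 2472 and 4624. The paired-type gene gsb-n had 1, at rank 7301 in an intron of Nplp1, and its paralogue gsb had none in the IDR or pooled list. In the full replicate lists gsb had 4, 1 and 2 summits, the best at ranks 18936, 25688 and 23079.

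Across the 35 genes, the best peak of each reproduced well where it was strong. The 30 genes with a summit had 29 best peaks, as slp1 and slp2 share theirs, and 24 of the 29 were overlapped by one of the strongest 7769 peaks in every replicate. Of the 29, 13 ranked within the first 1000 of the IDR list, and their poorest rank in any replicate was 1329. All 23 summits of the segmentation genes among the strongest 1942 had the support of every replicate. No such share is given for other IDR peaks at like ranks, so neither count is shown to be particular to these genes. Over all 100 summits the supported share was 65%, against 69.8% of the other IDR peaks. The IDR list was itself chosen from these libraries, so this support is a description. Peaks that share or overlap an interval can take the same replicate rank, which touched 10 of the 100 summits.

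**Figure D4:**
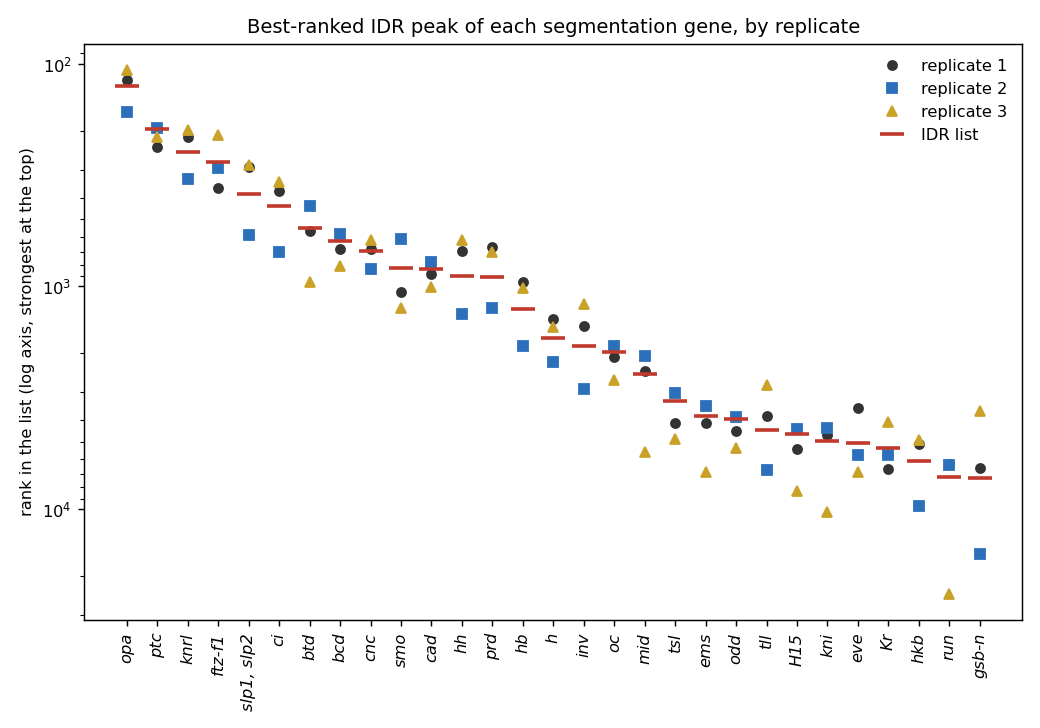
Rank of the best IDR peak of each of the 30 genes with a summit (log axis, strongest at the top) in the IDR list and in replicates 1, 2 and 3, with genes ordered by IDR rank. The peak of opa is the strongest of them in all 3 replicates, and the replicates scatter more at weaker genes such as kni, run and gsb-n.

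By kind of site, distal summits made up 70% of the 100 summits at segmentation genes (Wilson 95% interval 60.4 to 78.1), against 52.0% of the other 7669 IDR summits (50.9 to 53.1). In replicates 1, 2 and 3 the distal share was 70.2%, 69.4% and 69.1% at the segmentation genes, against 52.6%, 49.5% and 51.9% elsewhere. Promoter summits made up 18% (11.7 to 26.7) at the segmentation genes and 26.1% (25.1 to 27.1) elsewhere. The replicate values were 19.2%, 17.6% and 22.3%, against 25.2%, 28.9% and 25.0%. In every replicate the segmentation genes had the larger distal share and the smaller promoter share.

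The distal summits lay on every side of the genes. Of the 70, 27 lay inside a segmentation gene, 18 upstream and 25 downstream, and by annotation 36 were intergenic and 30 intronic. Over all 100 summits, 40% (30.9 to 49.8) were intergenic, against 22.9% of the others (22.0 to 23.9), and 37% (28.2 to 46.8) intronic, against 46.4% (45.3 to 47.5). Per 100 kb of whole sequence, both kinds were denser at the segmentation genes. Intergenic summits stood at 3.94 (2.81 to 5.36), against 1.32 in the rest, and intronic summits at 3.64 (2.57 to 5.02), against 2.68. Density per length of intergenic or intronic sequence itself was not computed. For 21 of the 30 genes with a summit the best one was distal, for 4 it was at another gene's promoter, for 4 it lay between the 2 limits, and for Kr alone it was at the gene's own promoter. The same split over all protein-coding genes is not given, and 70% of all 100 summits were distal.

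Own-promoter summits were found at 7 of the 35 genes (20%), against 15.3% of all protein-coding genes. Their median rank was below that of promoter summits elsewhere. The 7 genes with one were bcd, Kr, cnc, h, run, slp1 and ci, with ranks of 3311 to 7750. None of the 7 was among the strongest 1942, against 3 of the 11 summits at promoters of other genes in the windows. Elsewhere it was 532 of the 2000 promoter summits (26.6%), and 7 summits are too few to set a share against that. When strong peaks of both other replicates were required to overlap, leaving out replicate 1 or replicate 2 gave 4 genes with an own-promoter summit, and leaving out replicate 3 gave 5. The median rank was 5638 for the 7, 5144 for the 11 summits at promoters of other genes within the windows and 4087.5 for promoter summits elsewhere. Among all 18 promoter summits of the windows the median was 5290, and it was 4496.5 among the 70 distal ones. In replicates 1, 2 and 3 the medians were 5077, 5497 and 6250 for promoter summits and 4252, 4201 and 3950 for distal summits at the segmentation genes. Elsewhere the medians of the replicates were 4012, 4064 and 3954 for promoter summits and 3987, 3927 and 4031.5 for distal ones. By median, the promoter summits in the windows, own and other genes' together, thus ranked below the distal ones in each replicate. Elsewhere promoter summits ranked above distal ones in replicate 3 and slightly below them in replicates 1 and 2.

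More of these promoters appeared in the longer lists. In the pooled list of 30000 peaks, 33 of the 35 genes (background 80.1%) had a summit in the gene or within 10 kb, ftz and gsb being the exceptions. At their own promoter 20 of the 35 (57.1%) had a pooled summit, against 31.0% of all protein-coding genes, and the full replicate lists gave 22, 20 and 21. The 13 that the longer list added were tsl, hb, kni, knrl, hkb, ems, ftz-f1, odd, slp2, opa, hh, ptc and mid. Their best pooled ranks at the promoter ran from 8885 at opa, 109 bp from its TSS, to 24543 at ftz-f1. At 4 of the 35 (bcd, Kr, h and ci) a peak of the strongest 7769 had its summit at the promoter in every replicate (11.4%), against 9.57% of all protein-coding genes. In the pooled list the density was 40.3 summits per 100 kb at the segmentation genes (36.5 to 44.4), against 22.3 in the rest, a ratio of 1.81.

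In sequence, the distal summits of the segmentation genes were A/T-rich like those elsewhere, and their promoter summits were less so. Within 50 bp of the summit, A and T made up 68.0% of bases at distal summits of the segmentation genes and 68.2% elsewhere, and in windows centred 200 bp away they made up 55.8% and 56.9%. At promoter summits the share was 60.4% at the segmentation genes and 66.2% elsewhere. In replicates 1, 2 and 3 it was 61.1%, 60.6% and 58.3% at promoter summits of the segmentation genes, against 66.1%, 66.3% and 65.1% elsewhere. The difference lay in the 7 own-promoter summits, at 52.2%, whereas the 11 at promoters of other genes had 65.6%. These are small numbers of windows, and no test was made.

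**Figure D5:**
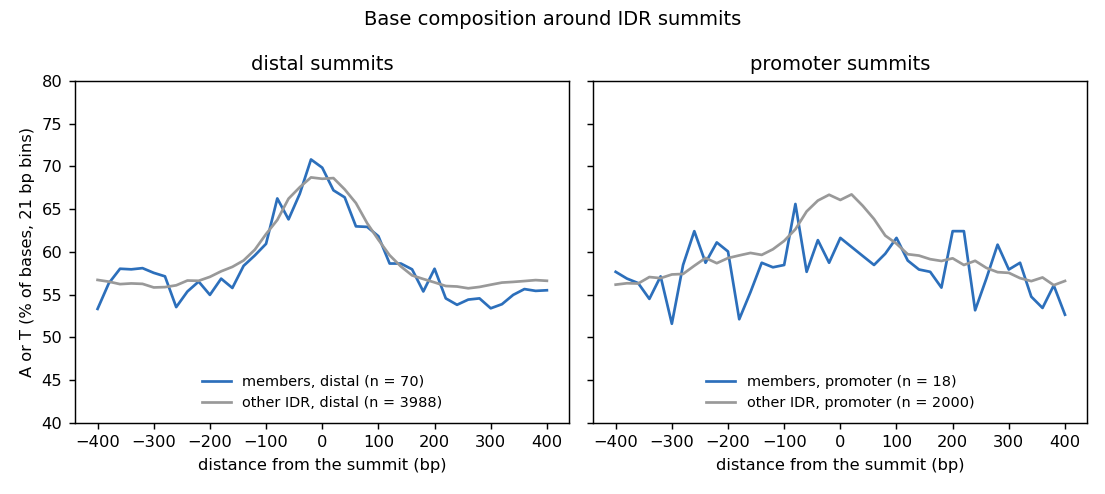
Share of bases that are A or T (vertical axis from 40%) in 21 bp bins against distance from the IDR summit in bp, for distal summits at left and promoter summits at right; blue lines are segmentation genes and grey lines all other IDR summits. Both distal curves peak at the summit, and at promoters the blue curve, drawn from only 18 windows, has no clear peak where the grey one does.

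Motifs of known factors were searched on both strands of the same 101 bp windows. CGATA, the core of the BEAF-32 motif, was in 17% of windows at segmentation genes (10.9 to 25.6) and 12.6% of the others (11.9 to 13.4). GAGAG, bound by GAGA factor, was in 10% (5.52 to 17.4) and 9.15%, and CAGGTA, the core of the Zelda motif, in 3% (1.03 to 8.45) and 2.02%. TAATCC, bound by Bicoid, was in 2% (0.550 to 7.00) and 2.91%, TATCGATA, the Dref motif, whose windows also count for CGATA, in 1% (0.177 to 5.45) and 0.691%, and the A/T-only word AAATATAT in 7% (3.43 to 13.8) and 7.63%. For each of these 6 words the interval at the segmentation genes held the value of the other windows. Of the sequences printed above, the bcd promoter window held GAGAG, and the 8 others held none of the 6 words.

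A further 29 genes of the same cascade were counted for context. Of these, 24 (82.8%) had an IDR summit in the gene or within 10 kb, against 67.2% of all protein-coding genes, and 6 (20.7%) had one at their own promoter, against 15.3%. Together they had 129 summits, or 11.5 per 100 kb (9.59 to 13.6), with replicate values of 11.2, 10.6 and 11.7. Of their summits, 57.4% were distal (48.7 to 65.6) and 24.8% lay between 250 bp and 1 kb from a TSS (18.1 to 32.9). Both shares were nearer to those of IDR summits elsewhere than to those of the 35 genes. The promoter share of 17.8% (12.2 to 25.3) was instead nearer to the 18% of the 35 than to the 26.1% elsewhere. By assigned class they had 11.5 summits per 100 kb at the 10 maternal and 7.63 at the 5 gap genes. The value was 22.1 at the 4 counted as pair-rule (Trl, sob, drm and bowl) and 9.89 at the 10 segment polarity genes. This is not the class order of the 35, and those 4 were placed in the pair-rule class for this count only. The strongest summits were at bowl, a zinc finger gene of the odd family (rank 93, 11 summits), at Trl, which encodes GAGA factor (rank 153), and at pum, a maternal translational repressor gene (rank 184, 21 summits). The Wingless ligand gene wg had 2 summits, the better at rank 6424, and nkd, an inhibitor gene of that pathway, had 12, all supported by every replicate. The Hedgehog pathway genes fu, Su(fu) and cos had none, and neither had the maternal genes stau and trk.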

How the data were processed

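The labels give 3 samples of 1 group, the replicates of D19A-eGFP ChIP-seq on whole embryos, so no comparison between groups was made. The authors deposited 5 peak lists in dm6 coordinates, per the labels. The signal value of each peak is the one the authors deposited, with no stated normalization, and served to rank peaks within a list. All IDR peaks stood at the same ceiling of −log10 q-value, as deposited, so it was not used to rank. The sources used here name no aligner, peak caller or IDR threshold. The replicates share 1 control file, and its part in the overlap of their lists was not tested. Depth per sample is unknown.

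Summits were placed on Ensembl release 115 gene models, without transposable elements, with 23581 distinct TSS positions. Overlap meant at least 1 bp. IDR entries that repeat an interval (188) were kept. Support by every replicate meant overlap with one of its 7769 strongest peaks. Shares carry Wilson and densities exact Poisson intervals. The genes, classes and motifs were chosen with earlier results of these data known, the motif AAATATAT among them. Genes named in full had a summit at their own promoter or were among the best 3 of their class by rank. Windows for printed sequence were chosen by rank, off 1 chromosome arm and without exons. Counting was tested on simulated data. Python 3.11.15, numpy 2.4.6, pandas 2.3.3 and scipy 1.17.1 were used.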

Additional observations from a re-analysis of the deposited data

How the results depend on the processing

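No paired analysis was possible because all samples belong to 1 group. Of 103 alternatives, 45 kept their value within the limits set (1.5 times for counts, 1 replicate SD for other values) and 58 did not; without ci and without ftz-f1 were chosen after seeing the data. Many changes follow from construction, since stricter lists hold fewer peaks. Leaving out each replicate in turn gave 4 to 5 genes with an own-promoter summit, median ranks of 2607 to 3762.5, 67.1% to 68.1% A or T, class densities of 5.74 to 6.70 (maternal), 5.13 to 6.64 (gap), 7.49 to 9.28 (pair-rule) and 8.01 to 9.01 (segment polarity) per 100 kb, and 68% to 82% of summits supported. With support by every replicate, 4 genes had an own-promoter summit, there were 65 summits with a median rank of 2472, and the class densities, in the same order, were 5.74, 5.13, 7.14 and 7.35. The strongest 3884 IDR peaks gave 2 genes, 43 summits, 14.0% promoter summits, a median rank of 1855, 69.1% A or T, class densities of 3.83, 3.92, 4.28 and 4.67, and 100% support. With summits within 100 bp as the match, 56% were supported. Windows of 5 kb gave a median rank of 4107, 59.7% support, 10.9 per 100 kb at maternal and 9.46 at pair-rule genes; windows of 20 kb gave 159 summits, 21.4% promoter summits, a median rank of 3994, and 10.3 and 9.99 per 100 kb, so the order of these classes depended on the window. Promoters of 100 bp gave 4 genes and 8% of summits, and of 500 bp 24%. The pooled list gave 20 genes at the promoter. Sequence within 100 bp was 65.2% A or T, and the 6 motif shares rose with the longer window. Without ci the segment polarity density was 9.25, and without ftz-f1 the pair-rule density 10.5.

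The density at the segmentation genes stayed above that of the rest in every list tried, all kinds of site together, with ratios of 1.45 in replicate 2 to 1.82 in pooled peaks without IDR overlap. Among the strongest 1942 IDR peaks it was 2.26 per 100 kb (1.44 to 3.40), an interval whose lower end takes in the 1.44 of the rest. Fixed list lengths, unknown depth, a shared control and mixed stages limit what ranks and counts can show.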

Other observations

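Outside the IDR list, 276 pooled peaks at the segmentation genes overlapped no IDR peak, or 27.2 summits per 100 kb (24.1 to 30.6), against 14.9 per 100 kb in the rest for the same kind of peak. Distal summits of the whole pooled list stood at 28.4 per 100 kb of whole sequence (25.3 to 31.9) at the segmentation genes and 13.9 in the rest. Near en, the homeodomain gene that marks posterior compartments, the 5 pooled summits lay 2756 to 9090 bp from its TSS at ranks 11249 to 26090, and the replicates had 8, 6 and 3 summits there, the best at ranks 7957, 10045 and 8850.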
